A study of Mus musculus with 17 samples.

Results

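Axon guidance genes encode the ligands and receptors by which growing axons and migrating cells are attracted or repelled. The genes described here are the semaphorins of classes 3 to 7, the plexins, the neuropilins, the ephrins, the Eph receptors, the netrins, the netrin receptors (Dcc and the Unc5 genes), the Slits and the Robos. They were chosen by symbol, and 71 of the 23719 entries in the count table carried such a symbol. Of these, 34 were ligands, 34 were receptors and 3 were antisense transcripts of Plxna4 that share its symbol. The study asked how the colon differs after a past exposure to pyridostigmine bromide (PB), which reversibly blocks acetylcholinesterase, as a model of Gulf War illness (GWI). The 8 GWI mice were C57BL/6 males given PB at 2 mg/kg for 7 days in the drinking water, followed by 21 days of recovery. The 9 control mice were C57BL/6 males that drank water without the drug. All were 32 to 34 weeks old, and colons were taken at day 30. Each library came from the colon explant of 1 mouse, and the layers of the wall that an explant held are not named, so the RNA is that of mixed tissue. Total counts per mouse lay between 16293537 and 20741212.

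Semaphorins signal through plexins, for secreted class 3 members usually together with a neuropilin, and ephrins signal through Eph receptors on the neighbouring cell. Netrins attract through Dcc and repel through the Unc5 receptors, and Slits repel through Robos. In the gut these systems guide neural crest cells and extrinsic nerve fibres, and they also act outside the nervous system: ephrin-B proteins and their receptors keep epithelial cells in their place along the crypt, and several semaphorins and plexins are made by the epithelium and by vessels.

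Some libraries stood apart from the rest. The median correlation of log2 CPM (counts scaled to a common library size) with the other libraries of the same group was 0.925 for Control 9 and 0.935 for Control 1, and from 0.960 to 0.971 for the other control libraries. GWI 5 had 0.960, where the other GWI libraries had 0.976 to 0.985. In Control 9 the 10 most abundant genes took 23.1% of all counts. Control 9 held the lowest control level of 28 tested members and Control 1 the highest control level of 33, and GWI 5 held the highest GWI level of 24. Control 6 and Control 7 carried genes of the small intestine: Fabp6, a bile acid binding protein of the ileum, reached 119 CPM in Control 6 and 314 CPM in Control 7, and at most 6.90 CPM in each other library. The summed CPM of the small-intestine markers was highest in Control 9 (2606.6, with 2333.9 from Fabp2), where Control 7 had 2503.5 and Control 6 had 1599.7.

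A gene was called when its p-value from edgeR, adjusted over all 14146 tested genes, was under 0.05. Of the 71 members, 61 had enough counts to be tested, and 15 of them (24.6%) were called higher in GWI colons, where 13.4% of all tested genes were called higher. In the other direction 2 members (3.28%) were called lower, against 13.5% of all tested genes. Leaving out 1 mouse at a time gave 1472 to 2523 of all tested genes higher and 1309 to 2295 lower. Of the members, 12 to 16 were then higher. The number lower was 6 without Control 7, Control 8 or Control 9, 7 without GWI 5, 4 without GWI 8, and 1 without Control 2, Control 3, Control 4, Control 6, GWI 2, GWI 3, GWI 4, GWI 6 or GWI 7. DESeq2 called 15 members (24.6%) higher and 6 (9.84%) lower, against 15.3% and 17.3% of all tested genes. With limma-voom, run with sample quality weights here and throughout, 18 members (29.5%) were called higher and 22 (36.1%) lower, against 27.6% and 29.5% of all tested genes, so there the share of higher members was near that of all genes and the share of lower members above it. With the markers of smooth muscle minus those of epithelium as a covariate, 15 (24.6%) were called higher and 0 lower, against 14.4% and 16.4%. With upper-quartile scaling, 12 members (19.7%) were called higher and 8 (13.1%) lower, against 8.58% and 21.2%, and the share of higher genes among all called genes went from 49.8% to 28.9%. The members called higher were Sema3b, Sema4a, Sema4b, Sema4g, Sema6a, Sema6d, Efna3, Efnb1, Efnb2, Plxna1, Plxnb2, Epha1, Epha2, Ephb2 and Unc5b. Those called lower were Ntn1 and Epha7. The median log2 fold change, GWI minus Control, was -0.12 over the tested members and -0.06 over all tested genes, so the called members were mostly higher while the median member lay slightly below 0. In 0 of the 61 tested members did the groups separate fully, with all GWI colons above or all below the control colons. Over all tested genes the GWI colons were all above the control colons in 1.83% and all below in 0.523%.

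**Figure D1:**
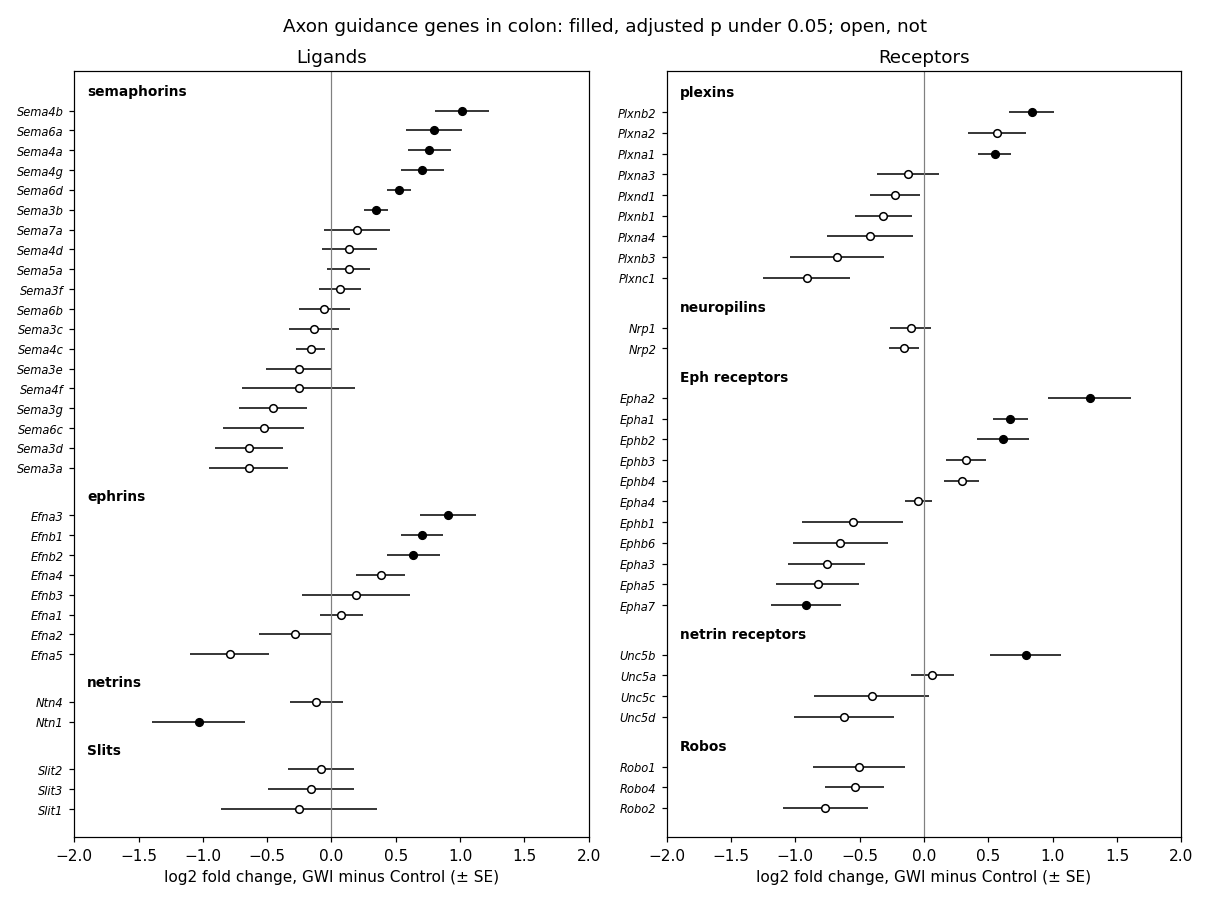
Log2 fold change (GWI minus Control, horizontal axis, with its standard error as the bar) of the 61 tested axon guidance genes, ligands on the left and receptors on the right, sorted within each family. Filled points mark the 15 genes called higher and the 2 called lower at an adjusted p-value under 0.05, and open points the 44 genes that were not called.

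Without Control 1 and Control 9, 15 of 62 tested members were called higher, 14 of them the same genes, and 3 lower. Of all 14161 genes tested there, 2786 were higher and 2778 lower, where all mice gave 1889 and 1903 of 14146. Without Control 6 and Control 7, 14 of 61 tested members were called higher, 13 of them the same genes, and 3 lower, with 1426 higher and 1351 lower of all 14139 genes. With all 4 of these libraries left out, 15 of 62 tested members were called higher, 14 of them the same genes, and 4 were called lower. Of all 14289 genes tested there, 2604 were higher and 2345 lower. These fits were added after the data were seen.

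Of the 20 semaphorins, 19 were tested, 6 were called higher and 0 lower. DESeq2 called 1 lower and limma-voom 5, and at an unadjusted p-value under 0.05 edgeR had 2 lower. The calls fell mostly on transmembrane members: 3 of 6 tested class 4 genes and 2 of 4 class 6 genes, with 1 of 7 secreted class 3 genes. Sema4b, a transmembrane class 4 semaphorin, had 21.3 to 78.7 CPM in control colons (median 37.1) and 57.6 to 108 CPM in GWI colons (median 81.2). All 8 GWI colons lay above the control median, and 7 of 9 control colons lay below every GWI colon, Control 1 and Control 2 being the exceptions. Its log2 fold change was 1.01 ± 0.21 (SE, 9 and 8 mice; adjusted p = 0.00332). Sema4a, of the same class, had 86.1 to 246 CPM in control colons (median 138) and 204 to 287 CPM in GWI colons (median 253), a log2 fold change of 0.76 ± 0.17 (adjusted p = 0.00459). Here only Control 1 reached into the GWI range. Sema4g had 103 to 240 CPM in control colons (median 145) and 169 to 325 CPM in GWI colons (median 227), a log2 fold change of 0.71 ± 0.16 (adjusted p = 0.00607). The lowest GWI value, that of GWI 8, was close to that of Control 9, and Control 1 lay among the GWI colons. Per kilobase of exon, Sema4a was the most abundant semaphorin, with a mean of 36.5 CPM per kilobase over all mice, where the median of all tested genes was 4.74.

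The smallest p-value of all members was that of Sema6d, a transmembrane semaphorin that binds plexin A1. It had 29.8 to 44.0 CPM in control colons (median 35.9) and 42.2 to 60.4 CPM in GWI colons (median 52.2), a log2 fold change of 0.53 ± 0.09 (adjusted p = 0.00134). The groups overlapped in a single pair of libraries, since Control 5 exceeded GWI 1, and 7 of 8 GWI colons lay above every control colon. Sema6a, which signals through plexins A2 and A4, had 10.1 to 41.9 CPM in control colons (median 16.5) and 24.99 to 43.9 CPM in GWI colons (median 34.8), a log2 fold change of 0.80 ± 0.22 (adjusted p = 0.0137). Control 1 was again the only control colon inside the GWI range. Secreted Sema3b moved least among the called members, from 58.5 to 105 CPM in control colons (median 87.3) to 101 to 121 CPM in GWI colons (median 109), with a log2 fold change of 0.35 ± 0.10 (adjusted p = 0.0139). Of the control colons only Control 2 lay above the lowest GWI colon. The call ended with upper-quartile scaling of the libraries (adjusted p = 0.0598), and without Control 1, Control 6, Control 7 and Control 9 the log2 fold change was 0.22, still called. The other 13 tested semaphorins were not called, with log2 fold changes from -0.65 for Sema3a, the classical repellent of sensory axons, to 0.20 for Sema7a. Sema3a had 9.34 to 27.2 CPM in control colons and 4.97 to 20.4 CPM in GWI colons (adjusted p = 0.117). In 6 of 8 GWI colons it lay below every control colon, and GWI 5 was the highest GWI colon. Without GWI 5 Sema3a was called lower (adjusted p = 0.0191). Sema3d, another secreted member, had a log2 fold change of -0.64 ± 0.27 (adjusted p = 0.0795) and was called lower without Control 8 or GWI 8 (adjusted p from 0.0255 to 0.0362). With all mice DESeq2, limma-voom and edgeR with upper-quartile scaling called Sema3d lower, and limma-voom also called Sema3a lower. In a fit with a covariate for muscle against epithelium, the mean log2 CPM of smooth muscle markers minus that of epithelium markers, the Sema3a log2 fold change turned to 0.13 (adjusted p = 0.726) and that of Sema3d to 0.23 (adjusted p = 0.425).

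All 8 ephrins were tested, 3 were called higher and 0 lower. DESeq2 and limma-voom each called 1 lower, and edgeR had 1 lower at an unadjusted p-value under 0.05. Efnb1, a transmembrane ephrin that receives signals as well as sending them, had 57.2 to 166 CPM in control colons (median 101) and 132 to 203 CPM in GWI colons (median 170). Among the control colons, Control 1 and Control 2 lay above the lowest GWI colon, and the rest below all of them. The log2 fold change was 0.71 ± 0.16 (adjusted p = 0.00618). Efnb2, also transmembrane, had 57.6 to 184 CPM in control colons (median 87.7) and 94.6 to 204 CPM in GWI colons (median 153), a log2 fold change of 0.64 ± 0.21 (adjusted p = 0.0313). Control 1 exceeded every GWI colon except GWI 5, and Control 2 and Control 5 also lay above the lowest GWI colon. The call of Efnb2 ended in 7 of 17 fits that left out 1 mouse, those without Control 3, Control 7, GWI 2, GWI 4, GWI 5, GWI 6 or GWI 7 (adjusted p from 0.0513 to 0.0594), and also without Control 6 and Control 7 together (adjusted p = 0.0816). The adjusted p of the Efnb2 log2 fold change was 0.0515 with the replicate number as a block and 0.0868 with the small-intestine markers as a covariate. The block fit leaves out Control 9, whose number no GWI mouse had. Efna3, anchored by a lipid, had 3.48 to 11.8 CPM in control colons (median 6.71) and 10.5 to 18.3 CPM in GWI colons (median 14.0), a log2 fold change of 0.91 ± 0.22 (adjusted p = 0.00781). In 7 of 8 GWI colons it lay above every control colon. An antisense gene lies opposite 14.1% of its exon length, and since the strand setting of the counting is not stated, reads of the pair cannot be told apart there. Efna1 had the highest level per length of the ephrins (44.2 CPM per kilobase) and was not called, with a log2 fold change of 0.08 ± 0.17 (adjusted p = 0.746). The lowest fold change of the family was that of Efna5, -0.79 ± 0.30 (adjusted p = 0.0601), which was called lower without Control 7, Control 8, Control 9, GWI 5 or GWI 8 (adjusted p from 0.0287 to 0.0489). With all mice DESeq2, limma-voom and edgeR with upper-quartile scaling called Efna5 lower. With the covariate of muscle minus epithelium markers it turned to 0.40 (adjusted p = 0.121).

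Of the 3 netrins, Ntn1 was called lower and Ntn4, a component of basement membranes, was not called. Ntn1, the secreted ligand of Dcc and the Unc5 receptors, had 25.4 to 217 CPM in control colons (median 53.7) and 22.1 to 76.3 CPM in GWI colons (median 34.7). The highest control colon, Control 6, had more than any other library, GWI 8 was the highest GWI colon, and 5 control colons (Control 1, Control 5, Control 7, Control 8 and Control 9) lay within the range of the GWI colons. The log2 fold change was -1.03 ± 0.36 (adjusted p = 0.0430), and 7 of 8 GWI colons lay below the control median. The call of Ntn1 ended in 11 of 17 fits that left out 1 mouse, those without Control 2, Control 3, Control 4, Control 6 or any of GWI 1 to GWI 7 (adjusted p from 0.0595 to 0.101). Without Control 6 the log2 fold change was -0.68, and without Control 6 and Control 7 it was -0.71 (adjusted p = 0.110). The adjusted p of the Ntn1 log2 fold change was 0.0634 with no filter on low counts, 0.0985 with the replicate number as a block and 0.120 with the small-intestine markers as a covariate. With the covariate of muscle minus epithelium markers its direction turned (0.28, adjusted p = 0.553). Ntn4 had a log2 fold change of -0.12 ± 0.21 (adjusted p = 0.684), whose direction turned with limma-voom (0.12), with the replicate block (0.07), with the covariate of small-intestine markers (0.13), without Control 9 (0.005) and without Control 1, Control 6, Control 7 and Control 9 (0.04). None of the 3 Slits, secreted ligands of the Robos, was called by edgeR, DESeq2 or limma-voom, and 0 had an unadjusted p-value under 0.05. Slit3, the most abundant of them at 1.77 CPM per kilobase, had 3.83 to 22.2 CPM in control colons and 4.36 to 18.7 CPM in GWI colons, a log2 fold change of -0.16 ± 0.33 (adjusted p = 0.735). Slit1 had a log2 fold change of -0.25 ± 0.61 (adjusted p = 0.773). Both were highest in Control 1 and GWI 5 of their groups, and without Control 1 both fold changes were above 0, at 0.02 and 0.16, still not called. With the covariate of muscle minus epithelium markers they were 0.96 for Slit3, which was then called higher (adjusted p = 0.0303), and 1.53 for Slit1 (adjusted p = 0.136).

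**Figure D2:**
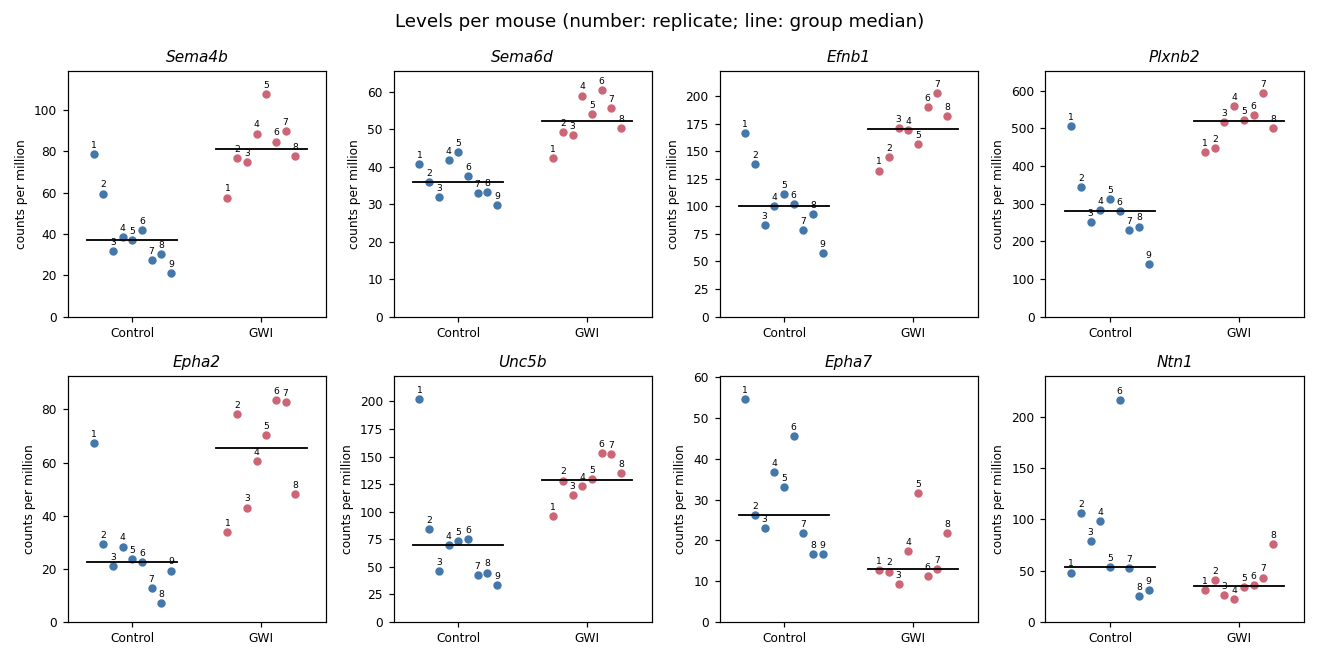
CPM (vertical axis, from 0) of 8 axon guidance genes in each of the 9 control and 8 GWI colons, with the replicate number beside each point and a line at the group median. Control 1 lies among the GWI colons for Sema4b, Efnb1, Plxnb2 and Epha2 and above them for Unc5b, and Control 8 and Control 9 have the lowest Epha7 and Ntn1 levels of the control colons, inside the range of the GWI colons.

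All 9 plexins, the receptors of semaphorins, were tested, 2 were called higher and 0 lower. DESeq2 called 1 lower and limma-voom 5, and edgeR had 1 lower at an unadjusted p-value under 0.05. Plxnb2, a receptor of class 4 semaphorins, had the highest level per length of all members, 51.0 CPM per kilobase. It had 140 to 506 CPM in control colons (median 280) and 436 to 593 CPM in GWI colons (median 518). Of the control colons only Control 1 lay above the lowest GWI colon. Its log2 fold change was 0.84 ± 0.17 (adjusted p = 0.00350). Plxna1, the partner of neuropilins and of Sema6d, had 15.96 to 38.0 CPM in control colons (median 25.2) and 31.2 to 44.6 CPM in GWI colons (median 38.5), a log2 fold change of 0.55 ± 0.13 (adjusted p = 0.00745). Control 1 and Control 6 lay inside the GWI range. An antisense gene lies opposite 10.7% of the Plxna1 exon length. Plxna2, a receptor of Sema6a, had a log2 fold change of 0.57 ± 0.22 and was not called (adjusted p = 0.0675), and without Control 1, its highest library, it was called higher at 0.83 (adjusted p = 0.000479). It was also called higher without Control 1 and Control 9 (adjusted p = 0.0004075) and without Control 1, Control 6, Control 7 and Control 9 (adjusted p = 0.00121). With all mice limma-voom called it higher. The lowest fold change was that of Plxnc1, the receptor of Sema7a, at -0.91 ± 0.34 (adjusted p = 0.0537). It was called lower without Control 7, Control 8, Control 9 or GWI 5 (adjusted p from 0.0197 to 0.0468), on counts of 7 to 56 per mouse. With all mice DESeq2 and limma-voom called Plxnc1 lower, as did edgeR with upper-quartile scaling or DESeq2 size factors. Plxnc1 was also called lower with the replicate number as a block, a fit that leaves out Control 9. It was also called lower without Control 6 and Control 7 together (adjusted p = 0.0485). With the covariate of muscle minus epithelium markers it was -0.07 (adjusted p = 0.908), and with that of small-intestine markers it was called lower (adjusted p = 0.0238). Of the neuropilins, Nrp2 had 81.7 to 126 CPM in control colons and 77.7 to 123 CPM in GWI colons, and Nrp1 had 5.58 to 11.9 and 5.50 to 10.8 CPM. Their log2 fold changes were -0.16 ± 0.12 (adjusted p = 0.314) and -0.11 ± 0.16 (adjusted p = 0.641). Neither was called by edgeR, DESeq2 or limma-voom, and 0 of the pair had an unadjusted p-value under 0.05 in edgeR.

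Of the 14 Eph receptors, 11 were tested, 3 were called higher and 1 lower. DESeq2 called 3 higher and 2 lower, limma-voom 4 and 5, and edgeR with upper-quartile scaling 2 and 3. Epha2, a receptor of ephrin-A ligands found on epithelial cells, had the largest log2 fold change of the called members, 1.29 ± 0.32 (adjusted p = 0.00896). It had 6.90 to 67.3 CPM in control colons (median 22.5) and 33.8 to 83.5 CPM in GWI colons (median 65.4). Control 1, with the 67.3 CPM, was the only control colon above the lowest GWI colon, and without it the log2 fold change was 1.62. Epha1 had 27.0 to 51.4 CPM in control colons (median 37.0) and 38.5 to 76.1 CPM in GWI colons (median 59.5), a log2 fold change of 0.67 ± 0.14 (adjusted p = 0.00282). In 7 of 8 GWI colons it lay above every control colon. The exons of Zyx on the opposite strand cover 6.01% of its exon length. Ephb2, which positions cells along the crypt, had 24.7 to 68.7 CPM in control colons (median 43.7) and 44.1 to 109 CPM in GWI colons (median 68.3), a log2 fold change of 0.62 ± 0.20 (adjusted p = 0.0320). The lowest GWI colon, GWI 5, barely exceeded the control median. Its call ended without Control 4, GWI 1, GWI 3 or GWI 4 (adjusted p from 0.0569 to 0.0718), without Control 1 and Control 9 together (adjusted p = 0.0660), without Control 1, Control 6, Control 7 and Control 9 (adjusted p = 0.0521), with upper-quartile scaling (adjusted p = 0.0666), and with the replicate number as a block, where the Ephb2 log2 fold change was 0.53 (adjusted p = 0.119). Ephb4, the most abundant Eph receptor per length (18.4 CPM per kilobase) and a receptor of Efnb2 in vessels, had 56.0 to 105 CPM in control colons and 80.4 to 118 CPM in GWI colons. Ephb4 was not called by edgeR with all mice (log2 fold change 0.29 ± 0.14, adjusted p = 0.115). Without Control 6 and Control 7 it was called higher (adjusted p = 0.0315), as it was with the covariate of small-intestine markers (adjusted p = 0.0150). With all mice limma-voom also called it higher.

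Epha7 was the Eph receptor called lower. It had 16.6 to 54.6 CPM in control colons (median 26.1) and 9.29 to 31.5 CPM in GWI colons (median 12.9), a log2 fold change of -0.92 ± 0.27 (adjusted p = 0.0209). In 5 of 8 GWI colons it lay below every control colon, while GWI 5 lay above the control median. Its call held whichever of the 17 mice was left out and ended with the covariate of muscle minus epithelium markers, where the log2 fold change turned to 0.05 (adjusted p = 0.861). The related Epha5 and Epha3, which like Epha7 bind ephrin-A ligands, had log2 fold changes of -0.83 ± 0.33 (adjusted p = 0.0656) and -0.76 ± 0.30 (adjusted p = 0.0661). Neither was called by edgeR with all mice. Among the other fits on all mice, DESeq2 called Epha5 lower, and limma-voom and upper-quartile scaling called both lower. Without Control 7, Control 8, Control 9 or GWI 5 the call was made for Epha5 (adjusted p from 0.0288 to 0.0432), and without Control 7 or GWI 1 for Epha3 (adjusted p from 0.0260 to 0.0484). With the muscle and epithelium covariate Epha5 turned to 0.06 (adjusted p = 0.914) and Epha3 was at -0.37 (adjusted p = 0.484), while with the covariate of small-intestine markers both were called lower (adjusted p = 0.0165 and 0.0423).

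Of the 5 netrin receptors, 4 were tested and Unc5b, which mediates repulsion by netrins and is also known from vessels, was called higher. None was called lower by edgeR or DESeq2, and 2 were by limma-voom. It had 33.5 to 202 CPM in control colons (median 69.6) and 96.1 to 153 CPM in GWI colons (median 129). Control 1 held the highest value of all 17 mice, and the other 8 control colons lay below every GWI colon. The log2 fold change was 0.79 ± 0.28 (adjusted p = 0.0409), and without Control 1 it was 1.14 (adjusted p = 0.000241). The call ended in 14 of 17 fits that left out 1 mouse, all but those without Control 1, Control 2 or GWI 1 (adjusted p from 0.0515 to 0.0733), without Control 6 and Control 7 together (adjusted p = 0.0970), and with upper-quartile scaling. The adjusted p of the Unc5b log2 fold change was 0.0582 with no filter on low counts and 0.0845 with the small-intestine markers as a covariate. Of the Robos, the receptors of Slits, 3 were tested. The edgeR fit on all mice called none, and 2 had an unadjusted p-value under 0.05 in it. DESeq2 also called none, limma-voom called all 3 lower, and edgeR with upper-quartile scaling called Robo4 lower. Robo4, the endothelial member, had 3.01 to 8.77 CPM in control colons and 2.09 to 6.18 CPM in GWI colons, a log2 fold change of -0.54 ± 0.23 (adjusted p = 0.0874). Robo2, which guides axons, had 3.97 to 25.5 CPM in control colons and 4.06 to 11.2 CPM in GWI colons, a log2 fold change of -0.77 ± 0.33 (adjusted p = 0.0895). GWI 5 was the highest GWI colon for both, and without it both were called lower (adjusted p = 0.0215 for Robo4 and 0.0477 for Robo2). Robo2 was also called lower without Control 9 (adjusted p = 0.0413) and with the covariate of small-intestine markers (adjusted p = 0.0292). With that of muscle minus epithelium markers, Robo4 turned to 0.15 (adjusted p = 0.614) and Robo2 to 0.31 (adjusted p = 0.497).

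The 10 members that failed the filter on low counts had at most 52 counts in any mouse. Dcc had 0 to 2 counts, Robo3 0 to 8, Epha10 0 to 10, Sema5b 1 to 12, Ntn5 2 to 18, Epha6 0 to 25 and Epha8 0 to 52. Epha6 and Epha8 were highest in Control 1. The antisense transcripts Plxna4os1, Plxna4os2 and Plxna4os3 had at most 5, 1 and 0 counts. With no filter on low counts, 70 of the 71 members were tested, and none of the members named here was called. The smallest difference that their counts could show was not computed.

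Summed over all members of a family, levels per mouse followed the abundant genes. The summed CPM of the plexins lay between 221 and 709 in control colons (median 405) and between 557 and 743 in GWI colons (median 658), with Control 1 the only control colon above the lowest GWI colon. For the semaphorins the sums lay between 654 and 1097 in control colons (median 780) and between 958 and 1201 in GWI colons (median 1067). Again Control 1 alone of the control colons reached the GWI range. The sums of the Eph receptors were 187 to 320 CPM in control colons (median 272) and 311 to 387 CPM in GWI colons (median 359), and those of the ephrins 220 to 512 CPM (median 291) and 322 to 476 CPM (median 438). For the Robos the sums were 8.92 to 39.9 CPM in control colons (median 20.4) and 8.83 to 23.0 CPM in GWI colons (median 10.3). Control 8 and Control 9 shared the low Robo sums of most GWI colons, and GWI 5 and GWI 8 had the highest sums in their group. These sums were not tested.

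Markers of the tissues in the colon wall also differed. In bulk tissue, fewer cells of a type and less RNA per cell cannot be told apart. Of 10 smooth muscle markers, 7 were called lower and 0 higher. The median of their log2 fold changes was -0.91, and all 10 lay below 0. Their summed level lay between 3690 and 23923 CPM in control colons (median 11584) and between 3658 and 11832 CPM in GWI colons (median 5142). Actg2, the most abundant smooth muscle marker per length, had a log2 fold change of -0.91 ± 0.37 (adjusted p = 0.0716), while Tagln (-1.17 ± 0.27, adjusted p = 0.00628) and Mylk (-0.91 ± 0.25, adjusted p = 0.0150) were called. The Actg2 log2 fold change was called lower without Control 8, Control 9 or GWI 5 (adjusted p from 0.0191 to 0.0464). With all mice DESeq2, limma-voom and edgeR with upper-quartile scaling called Actg2 lower, as did edgeR without Control 1 and Control 9 together. Of 12 markers of the colon epithelium, 5 were called higher and 0 lower. The median of their log2 fold changes was 0.39. Their sum lay between 25866 and 42505 CPM in control colons (median 32074) and between 30300 and 48140 CPM in GWI colons (median 38695). Its most abundant gene, Car1, had a log2 fold change of -0.06 ± 0.37 (adjusted p = 0.917), and Cdh1 (0.62 ± 0.13, adjusted p = 0.00422) and Cdx2 (0.38 ± 0.09, adjusted p = 0.00831) had the smallest p-values.

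**Figure D3:**
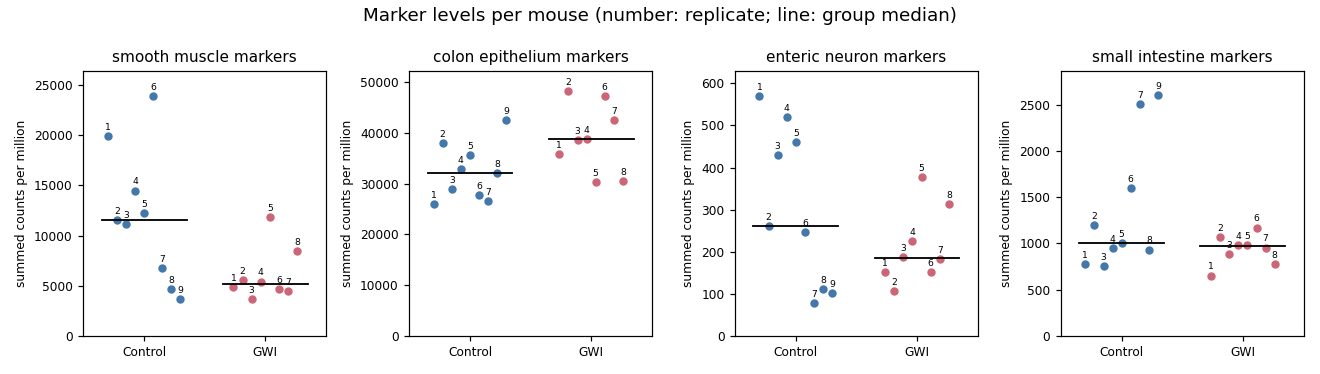
Summed CPM (vertical axes, from 0) of the markers of smooth muscle, colon epithelium, enteric neurons and the small intestine in each of the 9 control and 8 GWI colons, with the replicate number beside each point and a line at the group median. Control 7, Control 8 and Control 9 share the low smooth muscle and neuron sums of most GWI colons.

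Control 7, Control 8 and Control 9 had smooth muscle sums of 6790, 4702 and 3690 CPM, the lowest of the control colons and inside the range of the GWI colons. Their Sema4b levels were 27.5, 30.3 and 21.3 CPM and their Plxnb2 levels 231, 239 and 140 CPM, and their Epha7 levels were 21.9, 16.6 and 16.7 CPM, for each gene the lowest of the control colons. The score of muscle minus epithelium markers lay between -1.78 and 0.64 in control colons and between -2.43 and -0.97 in GWI colons. Score and group thus go together in part, and a fit with both cannot fully tell them apart. The fit with this covariate called 15 members higher, 13 of them the same genes, and 0 lower. Efna3 (0.68, adjusted p = 0.0654) and Ephb2 (0.38, adjusted p = 0.327) were no longer called, and Plxna4, a receptor of class 3 and class 6 semaphorins (0.96, adjusted p = 0.0104), and Slit3 (0.96, adjusted p = 0.0303) were. Of the 35 members with a log2 fold change below 0 in the fit without covariate, 27 had one above 0 in this fit, Epha7 and Ntn1 among them, and 1 member turned from above to below 0. The log2 fold changes of Sema6a, Plxna1, Efnb2 and Unc5b grew to 1.31, 0.83, 0.96 and 1.41.

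Markers of enteric neurons and of enteric glia differed in their calls. Of 10 enteric neuron markers none was called by DESeq2 or by edgeR with all mice and no covariate. In that edgeR fit 0 had an unadjusted p-value under 0.05, while limma-voom called 9 lower. Their median log2 fold change was -0.58, and their sum lay between 78.5 and 570 CPM in control colons (median 260) and between 105 and 377 CPM in GWI colons (median 185). The lowest sums were those of Control 7, Control 9 and GWI 2. Uchl1, the most abundant of them per length, had a log2 fold change of -0.63 ± 0.43 (adjusted p = 0.273). In edgeR, Stmn2 and Snap25 were called lower with the small-intestine markers as a covariate. Both were also called lower without Control 1, Control 6, Control 7 and Control 9. Of the enteric glia markers 9 of 11 were tested, 4 were called lower, among them Cdh19 (-1.29 ± 0.22, adjusted p = 0.000947), and 1 higher. DESeq2 and limma-voom each called 6 lower and 1 higher. The higher one, Erbb3 (0.91 ± 0.15, adjusted p = 0.00105), is also the most abundant per length and is made by epithelial cells as well. The glia sums lay between 222 and 460 CPM in control colons and between 408 and 535 CPM in GWI colons and followed Erbb3. The part of nervous tissue in the levels of the guidance genes was not tested.

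Vessel and other markers complete the picture of the wall. Of 10 blood endothelium markers edgeR called 3 lower, edgeR with upper-quartile scaling 4, DESeq2 4 and limma-voom 8, each with 0 higher. The median of their log2 fold changes was -0.43. Their sum lay between 56.2 and 233 CPM in control colons (median 159) and between 80.3 and 174 CPM in GWI colons (median 118), and Plvap, the most abundant, had a log2 fold change of -0.23 ± 0.25 (adjusted p = 0.501). Of the lymphatic endothelium markers 4 were tested and 1 was called lower, of 10 fibroblast markers 2 were lower, of 8 macrophage markers 1 was lower, and of 3 tested skeletal muscle markers 1 was lower. In the same order DESeq2 called 2, 2, 3 and 1 lower, limma-voom 4, 6, 7 and 1, and upper-quartile scaling 2, 3, 4 and 1. With the covariate of muscle minus epithelium markers 0 were lower in each of these lists, and 3 fibroblast markers were called higher. Of 5 adipocyte markers 1 was called higher and 0 lower. The median of their log2 fold changes was 1.10, and all 5 lay above 0. Their sum lay between 23.3 and 193 CPM in control colons (median 66.7) and between 66.4 and 547 CPM in GWI colons (median 156). With the covariate of muscle minus epithelium markers 0 adipocyte markers were called. None of 5 markers of interstitial cells of Cajal, 5 of mesothelium and 7 tested lymphocyte markers was called by the edgeR fit on all mice. In that fit 1, 0 and 0 had an unadjusted p-value under 0.05. DESeq2 called 1, 0 and 0, limma-voom 1, 0 and 0, and edgeR with upper-quartile scaling 1, 0 and 0. Of 13 small intestine markers 9 were tested and 3 were called lower, Fabp6 with a log2 fold change of -4.40 and Lyz1, a product of Paneth cells, with -4.42, and without Control 6 and Control 7 neither was called (-0.96 and -0.75). A fit with the small-intestine markers as a covariate called 15 members (24.6%) higher, 13 of them the same genes, and 5 (8.2%) lower. Of all tested genes it called 10.7% higher and 10.1% lower. The part of the other tissues in the levels of the guidance genes was not tested.

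Genes that work with these ligands and receptors were followed as a list of 120, of which 119 were in the table and 117 were tested. Of these 23 were called higher and 19 lower, where 13.4% and 13.5% of all tested genes were. With upper-quartile scaling 16 were called higher and 30 lower, against 8.58% and 21.2% of all tested genes. With the covariate of muscle minus epithelium markers 31 and 9 were, against 14.4% and 16.4%. DESeq2 called 26 higher and 26 lower, against 15.3% and 17.3%, and limma-voom 36 and 46, against 27.6% and 29.5%. Without Control 6 the number of partners lower was 12, and without GWI 3 or GWI 6 it was 11. Of all tested genes 1599, 1337 and 1336 were lower in these fits, in that order, against 1903 with all mice. The median over the tested partners was -0.13 on the log2 scale. The smallest p-value was that of Neo1, a receptor of netrins and of repulsive guidance molecules. It had 57.3 to 84.6 CPM in control colons (median 70.0) and 92.3 to 128 CPM in GWI colons (median 104), a log2 fold change of 0.59 ± 0.09 (adjusted p = 0.000673). All 8 GWI colons lay above every control colon. The same held for the kinase gene Prkca (0.43 ± 0.07, adjusted p = 0.00120) and for Pak1, a kinase downstream of Rac (0.31 ± 0.07, adjusted p = 0.00347). Erbb2, a receptor kinase that couples to B-type plexins, had a log2 fold change of 0.87 ± 0.17 (adjusted p = 0.00275), and the adaptor gene Grb7 of 0.67 ± 0.13 (adjusted p = 0.00227).

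Among the partners called lower, Tyrobp, the adaptor through which plexin A1 signals in myeloid cells, had 2.85 to 4.10 CPM in control colons (median 3.33) and 1.37 to 2.60 CPM in GWI colons (median 2.02). All 8 GWI colons lay below every control colon, with a log2 fold change of -0.77 ± 0.15 (adjusted p = 0.00225). Its receptor gene Trem2 had a log2 fold change of -1.44 ± 0.31 (adjusted p = 0.00422) on 3 to 30 counts per mouse. Dpysl4 (-1.55 ± 0.35, adjusted p = 0.00537) and Dpysl2 (-0.43 ± 0.10, adjusted p = 0.00636) encode cytoplasmic mediators of semaphorin signals. Lrrc4, which binds a netrin-G protein, had a log2 fold change of -1.24 ± 0.29 (adjusted p = 0.00588), and Flrt2, a ligand of Unc5 receptors, of -0.66 ± 0.16 (adjusted p = 0.00731). With the covariate of muscle minus epithelium markers, Trem2, Dpysl4, Lrrc4 and Flrt2 were no longer called (adjusted p from 0.0793 to 0.343).

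Promoter sequence was looked at because many members were higher together. RefSeq promoters (GRCm38.p6), taken as the 250 bases before the first listed start, were at hand for 58 of the 71 members, 12 of the 15 higher and 1 of the 2 lower. The letters GGGCGG, the core of the GC box, were searched on both strands and occurred in 10 of the 12 higher members, in 42 of the 58 members (72.4%) and in 32.9% of 27025 promoters of all genes. CCAAT occurred in 3 of the 12, in 15 of the 58 members (25.9%) and in 34.5% of all promoters. TATAAA occurred in 1 of the 12, in 2 of the 58 (3.45%) and in 13% of all. TTTATG, a core bound by Cdx factors, occurred in 0 of the 12, in 0 of the 58 and in 11.1% of all. A match is a description of the letters and not a binding site. The windows of Epha2, the called member with the largest fold change, of Plxnb2, the most abundant member, and of Epha7, the lower Eph receptor, are shown 5′ to 3′ on the strand of the gene, with matches to GGGCGG and CCAAT on either strand in capitals. They lie at chr4:141300971-141301220 (+ strand), chr15:89180789-89181038 (- strand) and chr4:28812881-28813130 (+ strand).
Epha2: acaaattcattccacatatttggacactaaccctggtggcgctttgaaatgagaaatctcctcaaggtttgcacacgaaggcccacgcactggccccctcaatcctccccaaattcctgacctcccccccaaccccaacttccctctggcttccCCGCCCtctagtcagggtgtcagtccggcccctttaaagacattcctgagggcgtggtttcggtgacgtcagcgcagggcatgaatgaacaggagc
Plxnb2: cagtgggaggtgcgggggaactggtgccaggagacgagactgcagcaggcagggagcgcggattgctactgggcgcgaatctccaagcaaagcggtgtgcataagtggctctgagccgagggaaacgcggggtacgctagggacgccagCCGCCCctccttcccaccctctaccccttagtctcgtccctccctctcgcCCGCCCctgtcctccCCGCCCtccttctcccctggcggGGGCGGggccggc
Epha7: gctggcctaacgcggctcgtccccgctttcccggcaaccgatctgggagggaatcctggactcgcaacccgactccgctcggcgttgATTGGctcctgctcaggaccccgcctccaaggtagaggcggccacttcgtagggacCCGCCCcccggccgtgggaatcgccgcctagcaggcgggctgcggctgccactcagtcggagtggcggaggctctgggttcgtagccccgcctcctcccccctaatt
Epha2 holds 1 match to GGGCGG, Plxnb2 holds 4, and Epha7 holds 1 together with 1 match to CCAAT.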

How the data were processed

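RNA from colon explants of 17 mice (9 Control, 8 GWI) was sequenced, 1 library per mouse. The authors deposited raw counts per gene, made with Trimmomatic 0.36, STAR 2.5.2b on GRCm38 and featureCounts. The annotation release and strand setting are not stated, and prefixes of the sample names are undefined and were not modelled. Counts per mouse summed to 16293537 to 20741212. In R 4.3.3, edgeR 4.0.16 (filterByExpr, TMM, robust quasi-likelihood test) compared GWI with Control over 14146 genes, with Benjamini-Hochberg adjustment and calls under 0.05. Levels are CPM, the counts divided by TMM-scaled library sizes, and per kilobase on the union of GENCODE M21 exons. Log2 CPM, used for correlations and marker scores, came from edgeR's cpm function with a prior count of 2. The procedure was tested on simulated data, and the outcome of that test is not given here. In each family every called member up to 6, the most abundant per kilobase and, where none was called, the 2 with the smallest p-values were named, with the 6 called partners with the smallest p-values per direction and 3 genes of a marker list. Other members were named after their values were seen, most of them where an alternative changed a call. Members and lists were chosen with earlier results of these data known. Alternatives were DESeq2 1.42.0 (size factors, Wald test), limma 3.58.1 voom with sample quality weights, upper-quartile scaling, no robust estimation, other count filters, the replicate number as a block, 2 marker covariates, another threshold, and leaving out each mouse. The block fit left out Control 9, whose number no GWI mouse had. Fits without Control 1 and 9, Control 6 and 7, or all 4 were chosen after seeing the data.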

Additional observations from a re-analysis of the deposited data

Results flagged for a closer look

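Each value here lay far from the others of its group. Chance gives such a gap in about 1 in 20 groups of normally distributed values. Such a gap was found in 14 of 68 groups. These groups share mice, and family sums hold single genes, so the count cannot be set against that rate. Control 1 was high for Sema4g (240 CPM), Sema6a (41.88 CPM), Efnb2 (183.6 CPM), Epha2 (67.28 CPM) and Unc5b (202 CPM), and for the summed plexins (708.8 CPM), netrin receptors (216.5 CPM) and Slits (45.99 CPM). Control 6 was high for Ntn1 (216.5 CPM) and the summed netrins (242.5 CPM). GWI 8 was high for Ntn1 (76.28 CPM) and the summed netrins (98.93 CPM), and GWI 5 for Robo4 (6.18 CPM). GWI 1 was low for the summed ephrins (322.4 CPM).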

How the results depend on the processing

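For 54 genes named by rule, 13 alternatives and 17 fits that left out 1 mouse gave 1613 values, of which 1482 kept direction and side of the threshold, 80 lost the call, 26 gained one and 25 reversed. Members called higher numbered 12 to 18 over all alternatives that kept the threshold. Unless stated, the cause was not tested. With upper-quartile factors, 8 members and 30 partners were lower, with 1214 genes higher and 2992 lower of all tested. The DESeq2 Wald test gave 6 members lower. Voom with sample quality weights, which changes the test and the weights at once, gave 22 members lower, 36 partners higher and 46 lower, and 3911 genes higher and 4180 lower. With no filter 1 member was lower. With the replicate number as a block, and so without Control 9, 814 genes were lower, while correlations within numbers lay between -0.506 and 0.115. The muscle covariate left 0 members and 9 partners lower, the small-intestine covariate 5 members lower. Without Control 1 and 9, 29 partners were lower, and without these and Control 6 and 7, 4 members. Requiring a log2 fold change beyond 1 in size with an unadjusted p under 0.05, 2 members were higher and 1 lower, 0 partners higher and 5 lower, and 92 genes higher and 250 lower. Leaving out 1 mouse gave 12 to 16 members higher and 1 to 7 lower, 1472 to 2523 genes higher and 1309 to 2295 lower, and 18 to 31 partners higher and 11 to 27 lower.

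With the muscle covariate 27 tested members turned above 0 and 1 below. Log2 fold changes of genes named by rule that reversed there were Nrp1 0.13, Epha7 0.0475, Ntn1 0.28, Slit3 0.96, Slit1 1.53, Robo4 0.15, Robo2 0.31, Uchl1 0.95, Stmn2 0.40, Snap25 0.30, Actg2 0.60, Mylk 0.12, Plvap 0.20 and Tie1 0.23. Actg2 and Mylk are among the smooth muscle markers that form this covariate, so their own values there decide nothing. Efna1 reversed with upper-quartile factors (-0.0125) and the small-intestine covariate (-0.0067), Nrp2 without 4 controls (0.0002), and Car1 with voom (0.0734), the block (0.2711) and without Control 1 and 9 (0.0394). Leaving out 1 mouse, Slit3 ranged from -0.3459 to 0.0197, Slit1 from -0.7526 to 0.1598, and the Car1 log2 fold change from -0.1872 to 0.2146. Of the 10 tested members named in other ways, which the 1613 values leave out, Sema3a 0.13, Sema3d 0.23, Efna5 0.40, Epha5 0.06 and Plxna4 0.96 reversed with the muscle covariate, and Ntn4 with voom (0.12), the block (0.07), the small-intestine covariate (0.13), without Control 9 (0.005) and without 4 controls (0.04).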
